A study of Mus musculus with 8 samples.

Results

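The inhibitory receptor genes of activated CD8 T cells, with 1 ligand gene and 1 regulator gene, were read from the count table by their symbols: Pdcd1, Lag3, Havcr2, Tigit, Cd160, Btla, Cd200 and Tox. These are 8 of its 41730 rows. They were measured in OT-I CD8+ T cells, mouse cytotoxic T cells whose transgenic receptor recognises the ovalbumin peptide SIINFEKL. The T cells had been cultured with SIINFEKL-pulsed bone marrow-derived dendritic cells of LXR-/- genotype and were then sorted by flow cytometry. The 4 control libraries came from cultures with DMSO and the 4 RGX-104 libraries from cultures with 2 uM RGX-104, a synthetic agonist of the liver X receptors (LXR). The dendritic cells were LXR-/- in both groups, and the labels give the T cells as OT-I and name no other change in them. The comparison asked how the agonist changed T cell transcripts when the antigen-presenting cells could not respond to it through LXR.

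Inhibitory receptors are surface proteins that T cells acquire on activation and that dampen signals from the T cell receptor and from costimulatory receptors. Many carry tyrosine motifs in the cytoplasmic tail that recruit phosphatases such as SHP-1 and SHP-2. Sustained high levels of several of them together mark the exhausted state of T cells in chronic infection and tumours, a state that depends on the nuclear protein TOX, whereas a brief rise follows any activation. The members act through different partners. PD-1 (Pdcd1) binds PD-L1 and PD-L2. LAG-3 (Lag3) binds MHC class II. TIM-3 (Havcr2) binds galectin-9 and CEACAM1, among others. TIGIT binds the poliovirus receptor PVR, for which it competes with the activating receptor CD226. BTLA and CD160 both bind HVEM (Tnfrsf14). CD200 is a ligand rather than a receptor and acts on CD200R1 of other cells.

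Of the 8 genes, Havcr2 and Btla were higher and Tigit was lower with RGX-104, and the other 5 did not pass the test (edgeR quasi-likelihood test, adjusted p under 0.05). All 8 passed the filter on low counts. Over all 13290 genes tested, 8.95% were called, 4.82% higher and 4.13% lower. The median log2 change of the 8 genes was -0.02 and that of all genes tested 0.00. The 3 called genes lie apart, Havcr2 on chromosome 11 (46454931 to 46481255, GRCm38, plus strand), Btla on chromosome 16 (45223705 to 45252895, plus strand) and Tigit on chromosome 16 (43626137 to 43665125, minus strand). Their promoter windows are shown because they are the members whose transcript level changed. The windows run from 250 bases before to 50 bases after the annotated start, 5′ to 3′ on the gene's strand (RefSeq, GRCm38.p6), at chr11:46454681-46454980 for Havcr2, chr16:45224087-45224386 for Btla and chr16:43664135-43664434 for Tigit. For Btla and Tigit the transcript start used for the window lies inside the gene span that RefSeq gives.
Havcr2: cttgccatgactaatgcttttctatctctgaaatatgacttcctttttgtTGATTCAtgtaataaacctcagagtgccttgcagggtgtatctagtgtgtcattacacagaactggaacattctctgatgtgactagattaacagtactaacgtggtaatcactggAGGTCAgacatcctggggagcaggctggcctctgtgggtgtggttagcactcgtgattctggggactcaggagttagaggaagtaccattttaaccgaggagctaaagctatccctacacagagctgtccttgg
Btla: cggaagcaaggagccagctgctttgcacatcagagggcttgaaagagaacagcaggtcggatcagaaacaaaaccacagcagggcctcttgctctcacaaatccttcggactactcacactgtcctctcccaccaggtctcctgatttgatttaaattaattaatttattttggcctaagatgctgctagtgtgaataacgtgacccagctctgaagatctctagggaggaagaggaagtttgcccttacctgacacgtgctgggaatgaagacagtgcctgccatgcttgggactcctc
Tigit: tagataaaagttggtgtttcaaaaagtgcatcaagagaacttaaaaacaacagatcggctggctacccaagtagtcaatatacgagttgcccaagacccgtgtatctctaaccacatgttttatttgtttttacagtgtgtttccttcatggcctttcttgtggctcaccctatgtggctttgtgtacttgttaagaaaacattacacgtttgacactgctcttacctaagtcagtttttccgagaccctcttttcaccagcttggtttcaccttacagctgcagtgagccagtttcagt
Capitals mark matches, on either strand, to the nuclear receptor hexamer AGGTCA, to 2 such hexamers in direct repeat 4 bases apart (the DR4 arrangement that LXR binds), to the NFAT core TGGAAA or to the AP-1 element TGANTCA. The Havcr2 window held 1 hexamer and 1 AP-1 match, and the Btla and Tigit windows held no match. The hexamer was found in 16.3% of the 32851 promoter windows of the same length, the DR4 repeat in 0.0152%, the NFAT core in 21.4% and the AP-1 element in 7.81%. A hexamer match within a DR4 repeat counts under both. Of the other members, Pdcd1 had 1 hexamer in its window and Cd160 (both of its windows) and Cd200 had no match. RefSeq windows of 6 of the 8 genes were found, those of Lag3 and Tox being the ones not found.

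The members differed widely in level. Per kilobase of exon, Lag3 was highest with 170 CPM per kb in control libraries (range 166 to 172), followed by Tigit with 74.5 (71.5 to 77.5) and Pdcd1 with 38.0 (37.0 to 39.1). Here CPM is the count scaled to a common library size with TMM (trimmed mean of M values) factors, and exon length is the union of all annotated exons of a gene. Cd160 (17.8 CPM per kb, range 16.7 to 20.2) and Btla (17.4, range 16.8 to 18.1) did not differ beyond their spread in the controls. Cd200 stood at 11.0 CPM per kb, Tox at 3.02 and Havcr2, the lowest, at 0.569. With RGX-104 the order was the same except for that one pair. Btla, at 19.5 CPM per kb (19.3 to 19.5), was then above Cd160, at 15.9 (14.6 to 17.2), with no overlap. Dividing by the longest transcript instead kept this order in both groups, although it raised Tox to 5.81 and Cd200 to 15.5 CPM per kb in the controls, and Cd160 and Cd200 then overlapped with RGX-104.

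**Figure D1:**
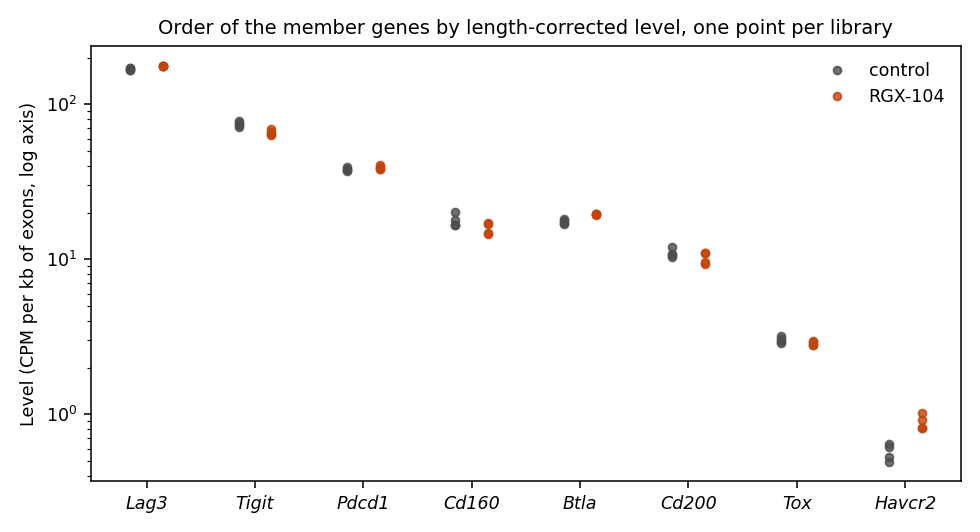
Level of each member gene per kilobase of exon on a log axis, 1 point per library, control and RGX-104 side by side. Lag3 lies at 166 to 177 CPM per kb and Havcr2 between 0.495 and 1.02, and Btla and Cd160 overlap in the control but not in the RGX-104 libraries.

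The 7 genes other than Tox together held 638 to 655 CPM in control and 646 to 657 CPM in RGX-104 libraries, so the summed reads overlapped between the groups. Lag3 alone gave 55.0% to 56.5% of these reads in the controls and 56.8% to 57.3% with RGX-104. In bulk RNA a difference in the number of cells that express a gene cannot be told apart from a difference in RNA per cell, here or in any value that follows.

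Havcr2, which encodes TIM-3, a receptor of terminally differentiated and exhausted cytotoxic cells, showed the largest fold of the 8. Its level was 1.35, 1.74, 1.43 and 1.67 CPM in control libraries 1 to 4 and 2.23, 2.21, 2.78 and 2.51 CPM in the RGX-104 libraries. Every RGX-104 library lay above every control library. It rose 1.57-fold (95% confidence interval 1.28 to 1.92), a log2 change of 0.65 ± 0.14 (SE), with an edgeR adjusted p of 0.00307. These levels rest on 47 to 62 counts per control library and 69 to 90 per RGX-104 library, the fewest of any member, and tested against a fold of 1.2 rather than against no change the adjusted p was 0.118. TIM-3 is also made by dendritic and other myeloid cells. The myeloid markers Lyz2 and Csf1r had at most 5 and 2 counts in any library, and the dendritic cell marker Itgax had 17 to 27 counts in control and 20 to 34 in RGX-104 libraries. Some other markers on these lists were higher with RGX-104. Ccl22 changed by 1.24 ± 0.11, Cd74 by 0.32 ± 0.04 and Ctss by 0.36 ± 0.04 (log2, SE; edgeR adjusted p = 1.45e-08, 6.12e-06 and 1.70e-06). Of the 9 dendritic cell markers tested 2 were higher, 6 did not pass and 1, Ccr7, was lower (-0.10 ± 0.03; edgeR adjusted p = 0.0125). The Ccr7 call was lost in 5 of 22 alternatives. Of the 2 myeloid markers tested Ctss, which T cells also express, was higher. The other, Cd68, did not pass (-0.09 ± 0.10; edgeR adjusted p = 0.633). The part of such cells in the Havcr2 values was not tested.

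Btla, which encodes an immunoglobulin-family receptor that is present on naive T cells and changes with activation, measured 61.6, 58.0, 59.7 and 57.2 CPM in the controls and 66.1, 65.6, 66.3 and 66.3 CPM with RGX-104. The groups did not overlap, and the 4 RGX-104 libraries spanned less than 1 CPM. The rise was 1.12-fold (95% confidence interval 1.07 to 1.17), or 0.16 ± 0.03 on the log2 scale (SE), with an edgeR adjusted p of 0.00188. B cells are another source of Btla. Of their markers Ms4a1 had 0 counts in every library, Pax5 at most 1 and Cd79a 3 to 15, whereas Cd79b had 125 to 170 counts and stood at 4.26 and 4.24 CPM in the 2 groups (edgeR adjusted p = 0.980). The part of B cells in the Btla values was not tested.

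Tigit, which encodes a receptor for PVR, was the one member called lower, though the estimates of Cd160, Cd200 and Tox were also negative. Tigit stood at 69.3, 65.7, 67.6 and 71.2 CPM in the controls against 58.2, 63.4, 60.9 and 58.9 CPM with RGX-104. Again no RGX-104 library reached the control range, although control library 2 and RGX-104 library 2 were only about 2 CPM apart. The change was -0.18 ± 0.04 on the log2 scale (SE), a fall to 0.882 of the control level (95% confidence interval 0.838 to 0.928), with an edgeR adjusted p of 0.00127. Of 11 tested CD8 T cell markers 4 fell, with Cd8a at -0.12 ± 0.02, Cd8b1 at -0.12 ± 0.03, Cd3e at -0.14 ± 0.03 and Cd247 at -0.18 ± 0.03 (log2, SE), and 5 did not pass. The other 2, named after their values were seen, were Lck (0.10 ± 0.03; edgeR adjusted p = 0.0395) and Lat (0.09 ± 0.03; 0.0254). The Lck call was lost without control library 2, 3 or 4 or any 1 RGX-104 library (0.09 to 0.11, adjusted p 0.0625 to 0.120), and the Lat call without control library 2 or 3 or RGX-104 library 2, 3 or 4 (0.08 to 0.10, adjusted p 0.0660 to 0.0987). Divided by the Cd8a count of the same library, Tigit was at 0.0749 to 0.0817 in control and 0.0723 to 0.0775 in RGX-104 libraries, which overlapped. Cd8a was itself lower, so the division moves every member upward by about the same amount on the log2 scale. Havcr2, Btla and Lag3 still did not overlap between the groups, and neither did Pdcd1 (0.0819 to 0.0856 in control and 0.0906 to 0.0977 in RGX-104 libraries), whose CPM did. Cd160, Cd200 and Tox overlapped. Whether the same process moved these genes was not tested. Tigit lies within the span of Zbtb20 on the opposite strand but shares 0 exonic bases with it, and Zbtb20 had 17 to 34 counts per library.

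**Figure D2:**
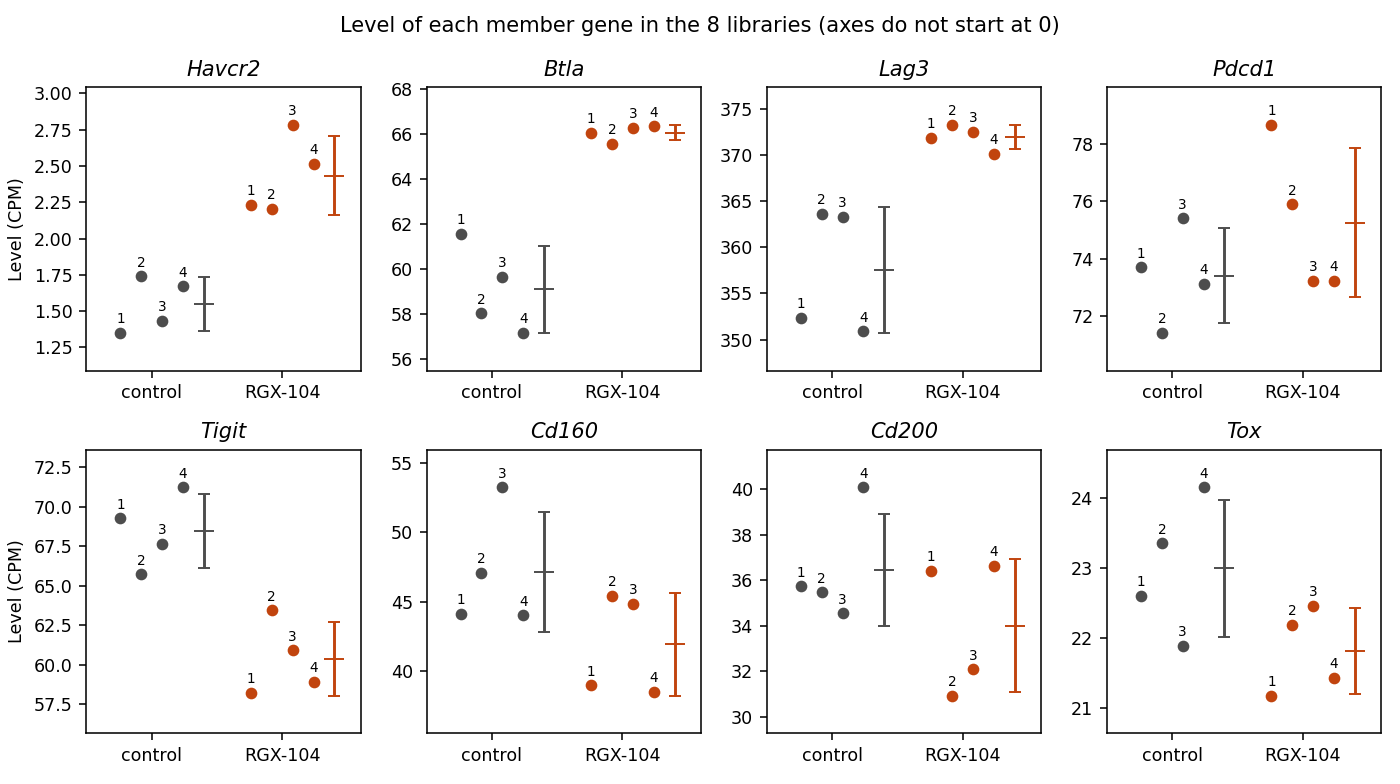
Level in CPM of each member gene in the 8 libraries, 1 numbered point per library, with the mean and SD (n = 4) at the right of each group; the vertical axes differ and do not start at 0. Havcr2, Btla and Lag3 are higher in all RGX-104 libraries and Tigit is lower in all of them. In Cd160 and Cd200 the RGX-104 libraries divide into 1 and 4 against 2 and 3, and the controls do likewise with a narrower gap.

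Groups did not overlap in 4 of the 8 members, against 14.5% of all genes tested. The 4th was Lag3, which encodes a CD4-like receptor for MHC class II. Lag3 read 352, 364, 363 and 351 CPM in the controls and 372, 373, 373 and 370 CPM with RGX-104. The separation was complete but narrow, with the highest control at 363.6 CPM and the lowest RGX-104 library at 370.1 CPM. Its log2 change was 0.06 ± 0.03 (SE; 95% confidence interval 0.00 to 0.11) and the edgeR adjusted p 0.185, so it did not pass. Lag3 lies on chromosome 6 (124904359 to 124912434), 1241 bases from Ptms, which encodes parathymosin. Ptms changed by 0.12 ± 0.03 (log2, SE; edgeR adjusted p = 0.0128), but not beyond the threshold without control library 3 (0.11, adjusted p = 0.0671) or RGX-104 library 2 (0.11, 0.0590) or 3 (0.10, 0.0725). Cd4, its neighbour on the other side, had 3 to 14 counts per library.

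Pdcd1, which encodes PD-1, did not pass. It was at 73.7, 71.4, 75.4 and 73.1 CPM in control and 78.7, 75.9, 73.2 and 73.2 CPM in RGX-104 libraries, and the groups overlapped. The estimate was 0.04 ± 0.03 (log2, SE; edgeR adjusted p = 0.567), and its 95% confidence interval ran from -2.22% to 7.42% of the control level. Pdcd1 lies on chromosome 1 (94038305 to 94052553). Tox, which encodes the chromatin regulator of the exhausted state, was at 22.6, 23.3, 21.9 and 24.2 CPM in control and 21.2, 22.2, 22.5 and 21.4 CPM in RGX-104 libraries. The RGX-104 values lay in the lower part of the control range or just under it. The estimate for Tox was -0.08 ± 0.05 (edgeR adjusted p = 0.345), with an interval from -0.17 to 0.02. Tox lies on chromosome 4 (6686353 to 6991557) and shares 260 exonic bases with the noncoding gene Gm11802, which had 1 to 7 counts per library.

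Cd160 and Cd200 did not pass, and in both the RGX-104 libraries divided into the same pairs, in opposite ways. The controls of the same numbers lay in the same order, with 1 and 4 under 2 and 3 in Cd160 and above them in Cd200. In Cd200 the controls were parted only narrowly (35.7 CPM in library 1 against 35.5 CPM in library 2). Cd160, encoding a glycolipid-anchored receptor for HVEM, was at 44.1, 47.1, 53.2 and 44.0 CPM in controls and at 39.0, 45.4, 44.8 and 38.5 CPM with RGX-104. RGX-104 libraries 1 and 4 lay under all controls and libraries 2 and 3 lay within them. Its estimate was -0.17 ± 0.08 (log2, SE) with an interval from -0.34 to 0.01 (edgeR adjusted p = 0.254). When genes of low count were kept in the fit, Cd160 passed, with -0.17 and an adjusted p of 0.00173. It also passed with a replicate block by column number (-0.17, adjusted p = 6.05e-04). DESeq2 and limma-voom gave adjusted p of 0.0742 and 0.0509.

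Cd200 read 35.7, 35.5, 34.5 and 40.1 CPM in controls and 36.4, 30.9, 32.1 and 36.6 CPM with RGX-104. Here libraries 1 and 4 lay within the controls and libraries 2 and 3 under them. The estimate for Cd200 was -0.10 ± 0.06 (log2, SE), with an interval from -0.23 to 0.02 (edgeR adjusted p = 0.328). The same 2 pairs were the closest RGX-104 libraries over all genes, with a chi-square per degree of freedom of 1.36 for libraries 2 and 3 and 2.35 for libraries 1 and 4, against 2.56 to 3.57 for the other RGX-104 pairs. Whether the libraries of a pair share a culture is not stated in the labels. With each pair summed into 1 library, Havcr2, Btla and Tigit were still called and the other 5 members were not. Cd160 lies on chromosome 3 (96798763 to 96829351) and Cd200 on chromosome 16 (45382111 to 45409060), 129216 bases from Btla.

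The partners of the members were examined next, from lists of the genes around them. Beside each count of called genes in a list stand the shares over all genes tested, 4.82% higher and 4.13% lower. In the PVR network Tigit, Cd96, Cd226 and Pvr passed. The nectin genes Nectin2 (-0.00 ± 0.17; edgeR adjusted p = 0.999) and Nectin3 (0.25 ± 0.18; 0.422), whose products bind some of the same receptors, did not pass, and Nectin1 and Nectin4 had at most 7 and 12 counts and were not tested. TIGIT and CD96 are inhibitory receptors for PVR and CD226 is an activating one. Cd96 fell from 94.6 ± 1.26 CPM to 81.9 ± 2.7 CPM (SD, n = 4), which is -0.21 ± 0.03 in log2 (SE; edgeR adjusted p = 4.32e-05), with no overlap. Cd226 was at 34.2, 37.6, 34.5 and 35.9 CPM in control and 38.3, 41.4, 39.8 and 37.6 CPM in RGX-104 libraries. The groups met at 37.6 CPM, where control library 2 was level with RGX-104 library 4. Cd226 changed by 0.14 ± 0.04 (log2, SE; edgeR adjusted p = 0.0290). This call was lost without control library 1 (0.13, adjusted p = 0.0701) or 3 (0.13, 0.0993) and without RGX-104 library 2 (0.12, 0.131) or 3 (0.14, 0.0835). It was also lost with 1 surrogate variable (0.14, 0.0807) and with RGX-104 libraries 2 and 3 summed (0.13, 0.0816). With both close pairs summed the values were 0.14 and 0.111, and 8 of 22 alternatives lost the call.

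Pvr, the shared ligand, rose from 30.7 ± 0.474 to 36.4 ± 1.28 CPM (0.24 ± 0.04, log2, SE; edgeR adjusted p = 1.17e-04). The Tigit count divided by the Cd226 count of the same library was 2.03, 1.75, 1.96 and 1.99 in controls and 1.52, 1.53, 1.53 and 1.57 with RGX-104. This ratio was nearly constant among the RGX-104 libraries, including those whose Tigit levels differed most. It is given without a test, since it was chosen after both genes had been seen to change.

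In the HVEM network Btla was the one gene of 4 that passed. Tnfrsf14, encoding HVEM itself, was at 74.1 ± 6.06 and 69.4 ± 1.78 CPM (edgeR adjusted p = 0.266), and Tnfsf14, encoding its ligand LIGHT, at 25.1 ± 0.597 and 27.3 ± 1.62 CPM (edgeR adjusted p = 0.115). Tnfrsf14 in control library 4, at 65.2 CPM, was under the other controls (75.7 to 78.3). Tnfrsf14 passed without that library (-0.15, adjusted p = 0.00394) and also with all libraries and 1 surrogate variable (-0.17, 0.00425). Tnfsf14 passed without RGX-104 library 2, with 0.16 (adjusted p = 0.0365). The ratio of Cd160 to Btla counts was 0.716 to 0.892 in control and 0.580 to 0.693 in RGX-104 libraries. This ratio is given without a test. Btla alone was already called, and Cd160 was not (edgeR adjusted p = 0.254).

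Of the genes that encode PD-1 ligands, Pdcd1lg2 (PD-L2) fell from 13.8 ± 0.525 to 11.5 ± 0.506 CPM (-0.26 ± 0.06, log2, SE; edgeR adjusted p = 0.00422). Cd274, encoding PD-L1, was at 40.4 ± 2.63 and 37.7 ± 0.925 CPM and did not pass (-0.10 ± 0.04; edgeR adjusted p = 0.162). Cd274 passed without control library 4 (-0.15, adjusted p = 0.0186) and also with all libraries and 1 surrogate variable (-0.15, 0.0455). Cd80, a costimulatory ligand that also binds PD-L1, rose from 32.4 ± 2.25 to 37.2 ± 1.52 CPM (0.20 ± 0.05; edgeR adjusted p = 0.00556), a call that was lost with 1 surrogate variable (0.15, adjusted p = 0.0637). T cells themselves express these ligands.

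For TIM-3, the ligand gene Lgals9 fell from 95.4 ± 2.29 to 85.1 ± 2.41 CPM (-0.16 ± 0.03; edgeR adjusted p = 8.38e-04), opposite in direction to Havcr2, and Ceacam1 had 5 to 11 counts per library and was not tested. Lgals3, encoding galectin-3, which can bind LAG-3 among many glycoproteins, rose from 36.5 ± 3.53 to 86.0 ± 5.92 CPM (1.24 ± 0.07; edgeR adjusted p = 1.23e-06). The MHC class II genes H2-Aa and H2-Ab1 were listed at 0 in every library and have copies on alternate scaffolds in the table, so their expression was not assessed. Cd200r1, the receptor for CD200, was at 0.509 ± 0.147 and 0.567 ± 0.0485 CPM (edgeR adjusted p = 0.764). Over the whole list of ligands and partners 3 of 13 tested genes were higher and 2 lower, with a median log2 change of 0.12, and without control library 4 the count of lower genes was 4.

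**Figure D3:**
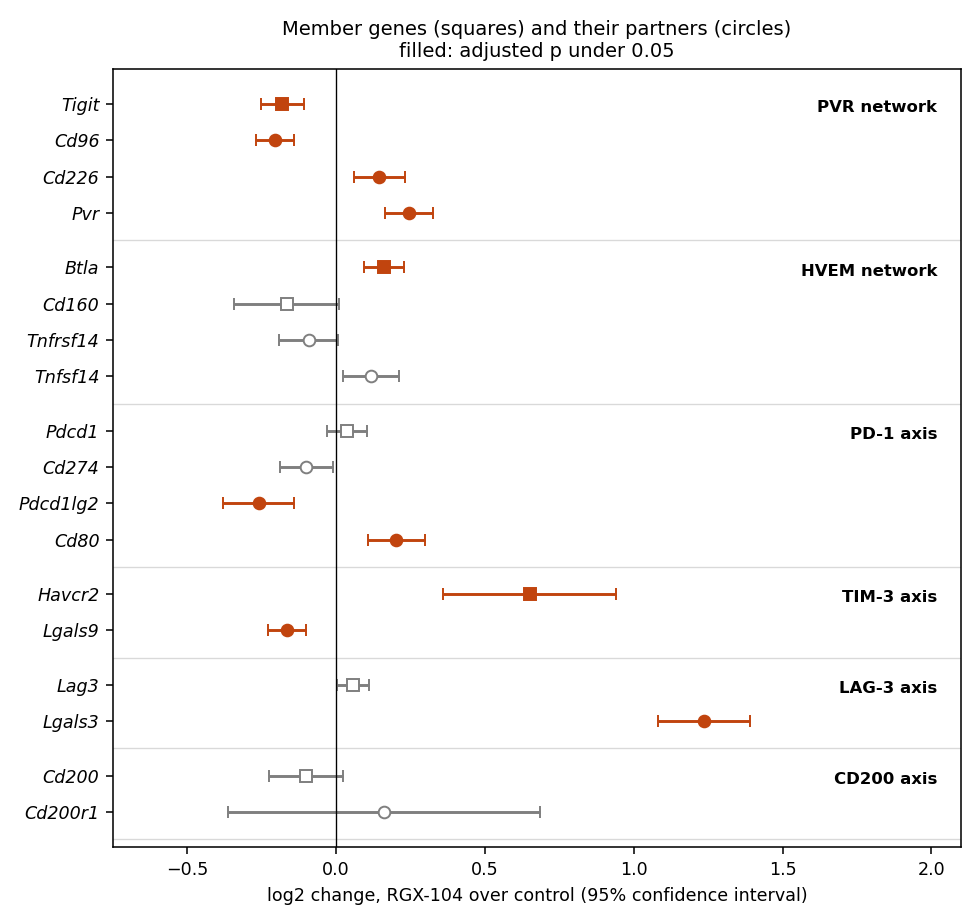
Log2 change from control to RGX-104 with its 95% confidence interval for member genes (squares) and their partners (circles), grouped by binding network; filled points passed the test. In the PVR network Tigit (-0.18) and Cd96 (-0.21) lie to the left of 0 and Cd226 (0.14) and Pvr (0.24) to the right, and the point farthest from 0 is Lgals3 at 1.24.

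Among 15 other inhibitory genes tested, 1 rose and 3 fell, around a median log2 change of -0.10. Most encode receptors, but Nt5e and Entpd1 encode enzymes. Besides Cd96 these were Klrc1, Nt5e and Vsir. Klrc1, which encodes the NKG2A chain of an inhibitory receptor for Qa-1, rose from 4.07 ± 0.899 to 8.85 ± 0.792 CPM (1.13 ± 0.12; edgeR adjusted p = 2.77e-06), and its reads can be shared with close paralogs of the same cluster. Nt5e, encoding the adenosine-producing enzyme CD73, fell from 1.86 ± 0.253 to 1.03 ± 0.284 CPM (edgeR adjusted p = 0.00316), at 19 to 72 counts per library. Vsir, encoding the checkpoint receptor VISTA, fell by 0.18 ± 0.04 on the log2 scale (edgeR adjusted p = 0.00199). Ctla4, the inhibitory receptor that competes with CD28, was at 36.1 ± 0.823 and 35.0 ± 0.832 CPM and did not pass (edgeR adjusted p = 0.517). Cd28 was at 19.3 CPM in both groups (edgeR adjusted p = 0.962; 95% confidence interval of the log2 change -0.10 to 0.09). Without RGX-104 library 3 the count of higher genes was 2.

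Among 18 costimulatory genes tested, the activating counterparts, edgeR called 7 higher and 0 lower, around a median log2 change of 0.09. Over all genes tested it called 4.82% higher and 4.13% lower. DESeq2 and limma-voom also called 7 of the 18 higher and 0 lower. At an unadjusted p under 0.05 edgeR gave 9 of them higher and 0 lower. Icos, encoding an inducible relative of CD28, rose from 8.12 ± 0.354 to 10.3 ± 0.381 CPM (0.35 ± 0.07; edgeR adjusted p = 0.00104). Cd40lg, the ligand of CD40, rose by 0.41 ± 0.09 and Tnfrsf9, which encodes 4-1BB, by 0.18 ± 0.03. Klrk1, encoding the activating receptor NKG2D, changed by 0.42 ± 0.09 (edgeR adjusted p = 0.0361). The Klrk1 call was lost without control library 1, 2 or 4 or RGX-104 library 2, 3 or 4, where the log2 change was 0.37 to 0.45 and the adjusted p 0.0560 to 0.116. It was also lost with no filter (0.41, adjusted p = 0.0637) and with 1 surrogate variable (0.44, 0.1335). With RGX-104 libraries 2 and 3 summed the values were 0.38 and 0.0781, and with both close pairs summed 0.42 and 0.101. In all, 11 of 22 alternatives lost the Klrk1 call. Whether these receptors differed from the inhibitory ones was not tested.

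Of 41 tested transcription factor genes known to act on inhibitory receptor genes or in exhaustion, 3 rose and 8 fell, and the median log2 change was -0.03. Prdm1, encoding the repressor Blimp-1, fell from 16.3 ± 1.37 to 12.7 ± 0.521 CPM (-0.37 ± 0.06; edgeR adjusted p = 2.08e-04). Jun, an AP-1 subunit, fell by 0.34 ± 0.04, Ikzf3, encoding Aiolos, by 0.30 ± 0.04 and Tbx21, encoding T-bet, by 0.27 ± 0.03. Nr4a1, an early gene of T cell receptor signalling that is also tied to exhaustion, rose from 190 ± 10.1 to 223 ± 4.20 CPM (0.24 ± 0.03; edgeR adjusted p = 1.29e-05). Its relatives Nr4a2 and Nr4a3 did not pass (edgeR adjusted p = 0.842 and 0.276). Tcf7, encoding TCF-1 of stem-like cells, was at 377 ± 6.08 and 375 ± 4.44 CPM. Tox2, the closest relative of Tox in exhaustion, had 3 to 8 counts per library and was not tested.

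Of 35 tested downstream signalling genes 3 rose and 3 fell, around a median log2 change of 0.00. Ptpn6, which encodes the phosphatase SHP-1, was at 475 ± 8.42 and 479 ± 16.7 CPM (edgeR adjusted p = 0.858). Ptpn11, which encodes SHP-2, the main partner of PD-1, changed by -0.11 ± 0.03 (edgeR adjusted p = 0.0214). The Ptpn11 call was lost without control library 1 or 2 or RGX-104 library 1, 2 or 4, with a log2 change of -0.10 to -0.09 and an adjusted p of 0.0570 to 0.0751. Dusp5, a phosphatase of ERK, fell by 0.19 ± 0.03, and the ubiquitin ligase gene Cblb changed by -0.11 ± 0.03. Ptpn7 and Rasa2, a phosphatase and a Ras regulator, both rose by 0.15 ± 0.03. Without RGX-104 library 4 the count of lower genes was 1, and Cblb was then at -0.10 (adjusted p = 0.0524). Genes that act on the surface level of these receptors by shedding, ubiquitination or transport gave 0 calls among 10 tested with each of edgeR, DESeq2 and limma-voom. The edgeR count at an unadjusted p under 0.05 was also 0.

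For each member the 2 genes whose level followed it most closely over the 8 libraries were sought, as a description. Btla was followed by Icos (Pearson r of log2 CPM 0.98) and Antxr2 (0.98), both of which were higher with RGX-104. Havcr2 was followed by Ttc21b (0.98) and Cd40lg (0.98), and Lag3 by Gas2l3 (0.99) and Unc119 (0.98). Tigit was followed by Nop53 (0.98) and Smim3 (0.98), Cd160 by Sp100 (0.99) and Arnt (0.99), Cd200 by Rrp8 (0.98) and Cdv3 (0.97), Tox by Phf8 (0.97) and Upp1 (0.96), and Pdcd1 by Lrrc7 (0.95) and Mcmdc2 (0.95). Predicted gene models and genes of mean log2 CPM under 1 were left out of the search. These values are the highest of many genes over 8 points, and the points share their libraries and, in 4 of the members, a separation by treatment.

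Library totals ranged from 30642316 to 37714355 counts. The T cell markers Cd3e (285 to 339 CPM), Cd8a (805 to 903 CPM) and Cd8b1 (423 to 476 CPM) were high. Cd2, on the same list of CD8 T cell markers, had 0 to 6 counts per library and was not tested. The 12 CD8 T cell markers summed to 4008 to 4132 CPM in control and 3946 to 4007 CPM in RGX-104 libraries, with 2 of 11 tested higher and 4 lower. The 11 myeloid markers summed to 30.9 to 35.1 and 38.4 to 41.7 CPM, most of it Ctss, which T cells also express, and 9 of them had under 20 counts in every library. The 14 dendritic cell markers summed to 818 to 867 and 807 to 825 CPM, most of it Ccr7, a homing receptor of T cells, and 6 had under 20 counts in every library. Those that were higher with RGX-104 were Ccl22 (2.05 to 4.83 CPM) and Cd74 (26.5 to 33.2 CPM). The 6 natural killer cell markers summed to 248 to 267 and 220 to 238 CPM. Most of it was Nkg7 (means of 206 and 178 CPM), and Ncr1 was at 0 in every library. The 6 CD4 and regulatory T cell markers summed to 848 to 943 and 892 to 977 CPM. Most of it was Il2ra (means of 789 and 844 CPM), with Cd4 at 3 to 14 counts and Foxp3 at no more than 6. The B cell markers summed to 3.96 to 5.45 and 4.37 to 4.70 CPM and the erythroid markers to 0.115 to 0.619 and 0.346 to 0.619 CPM. The part of these markers in the members' values was not tested.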

How the data were processed

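Counts were analysed from RNA sequencing of 8 samples of FACS-purified T cells, 4 control and 4 RGX-104. The deposited values are raw counts per gene, which the authors left unscaled. GRCm38, STAR 2.7.5, cutadapt 2.10, DESeq2 1.4 and R 4.1.0 are named in the submitters' processing notes. How reads were assigned to genes, with which annotation and strand, is not given in the sources used here, so counts of overlapping or near-identical genes are uncertain. Control columns matched numbered samples. RGX-104 columns showed their group only and are numbered by column. All 8 columns were used.

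The table of 41730 rows was filtered with filterByExpr (minimum count 10, minimum total 15), leaving 13290 genes. The test was edgeR 4.0.16 (R 4.3.3), quasi-likelihood with robust fitting, TMM scaling and treatment as the only term, with Benjamini-Hochberg adjustment over all genes tested and adjusted p under 0.05. It was tested on simulated data. Standard errors came from the F statistic and intervals (0.95) from its degrees of freedom. Lengths came from GENCODE M21 and gene coordinates from RefSeq GRCm38.p6. Chi-square between libraries was computed over tested genes, and no pair agreed within counting noise. Nothing states that libraries of a group came from separate cultures, so p-values measure the spread between these libraries, which may be technical.

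The members and the gene lists were chosen with earlier results of these data known. Named genes were the members, 20 set counterparts, defining markers, neighbours, up to 4 called genes of largest change per list and the 2 genes most like each member. Of the defining markers, 1 is not reported here. Antibody or protein levels were not analysed here. Alternatives were DESeq2 1.42.0, limma-voom 3.58.1 with sample weights, other scalings and filters, 1 surrogate variable (sva 3.50.0), thinning, a test against a fold of 1.2, added scaffold copies, a block by column number and leaving out each library. Summing close RGX-104 libraries was added after the data were seen.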

Additional observations from a re-analysis of the deposited data

Results flagged for a closer look

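In 120 groups of 4 libraries, from 60 named genes, 3 held a library far from the other 3, where chance gives about 1 in 20. None was a member. Ctla4 was at 36.3 CPM in RGX-104 library 4 against 34.6 in the other RGX-104 libraries. Ptpn11 was at 185 CPM in RGX-104 library 3 against 176 to 177 CPM. Rnf115, the gene beside Cd160, was at 93.0 CPM in control library 4 against 82.2 to 83.1 CPM in the other controls.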

How the results depend on the processing

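Over 22 alternatives, the calls of Havcr2, Btla and Tigit were lost in 1, the test against a fold of 1.2 (log2 changes 0.65, 0.16 and -0.18, adjusted p 0.118, 1.00 and 1.00), where 0 members were higher and 0 lower and, over all genes, 65 were higher and 45 lower against 640 and 549 in the main test. Their log2 changes ranged from 0.58 to 0.73, from 0.14 to 0.18 and from -0.21 to -0.16. Pdcd1, Lag3, Cd200 and Tox passed in none of the 22, with adjusted p of at least 0.418, 0.0852, 0.0686 and 0.262. Cd160 passed in 2, with no filter (-0.17) and with a replicate block by column number (-0.17, adjusted p = 6.05e-04), and 2 members were then lower. The block gave 1109 genes higher and 906 lower, and Tnfrsf14 (-0.09, adjusted p = 0.0447) and Tnfsf14 (0.12, 0.0473) passed with it. Columns of the same number deviated together weakly (r = 0.14, 0.07, 0.04 and 0.16), but each RGX-104 column correlated best with the control column of its number. Columns of unlike number gave r from -0.12 to 0.04. Control column 3 correlated about equally with RGX-104 columns 3 (0.0430) and 4 (0.0447). The labels number the samples without pairing them, and whether columns of the same number belong together was not tested. With 1 surrogate variable 425 genes were higher and 365 lower, and with both close pairs of RGX-104 libraries summed 358 and 264. The cause of these differences was not tested. Among the list counts that moved, lower transcription factor genes were 5 rather than 8 with 1 surrogate variable and with both pairs summed, lower ligand genes 4 rather than 2 with 1 surrogate variable and with the block, and lower signalling genes 6 with the block and 1 with both pairs summed, against 3. Higher genes on the list of other inhibitory genes were 2 rather than 1 in 6 alternatives. Against a fold of 1.2 only Klrc1 and Lgals3 passed among the lists of other inhibitory, ligand, costimulatory, transcription factor and signalling genes. Ccl22, of the dendritic cell markers, passed in all 22 alternatives. The median log2 change over all genes was at most 0.013 under any scaling. Depth limits Havcr2 most, at 47 to 90 counts per library.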
